A study of Mus musculus with 18 samples.

Results

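The SIN3 complex subunit genes comprised 10 genes, Sin3a, Sin3b, Sap30, Sap30l, Sap130, Suds3, Brms1, Ing1, Ing2 and Arid4b, chosen by gene symbol among the 53672 genes listed in each of 18 RNA-seq libraries. The rule used symbols only. All 10 were listed and all 10 had enough counts to be tested, beside 18791 tested genes in all. The libraries came from mouse embryonic stem cells (ESCs) of the E14TG2a line in which both Hdac1 alleles and both Hdac2 alleles can be deleted with 4-hydroxytamoxifen (OHT). Every group, the controls included, carried this conditional double knockout background and a stably integrated piggyBac transgene for Flag-tagged HDAC1. The transgene was wild-type (HDAC1-WT) in one line and carried a single amino acid substitution, E63R or Y48E, in the others. Each of the 3 lines was sequenced untreated and after 1 µM OHT, which gave 6 groups of 3 libraries. The labels give 5 days of OHT, and the study's methods give 24 h of OHT followed by 4 days of culture without it. Each rescue construct was represented by 1 line here, so a difference between lines cannot be told apart from a difference between constructs. The study calls its RNA-seq replicates biological, the labels do not say whether they were separate cultures, and p-values measure the spread between these libraries only.

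SIN3 is one of the corepressor families through which the histone deacetylases HDAC1 and HDAC2 act on chromatin. SIN3A and SIN3B are paralogous scaffold proteins that bind sequence-specific repressors and hold the deacetylase, SUDS3 (also called SDS3) and SAP30 join them near the deacetylase, and ING1 and ING2 read trimethylated lysine 4 of histone H3. In ESCs the complex is known for its role in proliferation and in the maintenance of pluripotency. The study designed the E63R and Y48E substitutions from a structure of HDAC1 with MTA1, with the aim of disturbing partner binding. It then found that they separate the complexes that HDAC1 can enter. The question asked here is how the transcripts of the SIN3 subunits themselves stood in each line with and without the endogenous deacetylases.

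Library totals lay between 9019615 and 11454638 counts on genes. Hdac1 stood at 201 to 210 CPM (counts per 1000000 counts on genes, with library sizes scaled by TMM factors) in the untreated HDAC1-WT libraries and at 169 to 179 CPM after OHT, and in the mutant lines it lay between 94.9 and 131 CPM in all 12 libraries. Hdac2 stood at 169 to 208 CPM and then 112 to 133 CPM in the HDAC1-WT line, at 152 to 210 and then 150 to 158 CPM in the HDAC1-E63R line, and at 149 to 154 and then 139 to 152 CPM in the HDAC1-Y48E line. Whether these counts hold reads of the transgene or of deleted alleles was not tested, and they do not serve as a check of the deletion. Near-identical copies such as Gm10093, 99.4% identical to Hdac1 over 1444 bases, also hold counts, so the Hdac1 level is uncertain. One library stood apart. HDAC1-E63R untreated replicate 3 differed from its group with a chi-square per degree of freedom of 60.4 and 67.1, against 3.38 to 7.42 for the 16 other replicate pairs. In it, genes with less than 1500 bases of annotated exon were higher than in the other 2 replicates (median log2 difference 0.37) and genes with more than 6000 bases were lower (-0.47). Its Sap30 level was 286 CPM, against 150.01 and 139 CPM in replicates 1 and 2, and its Sap130 level was 42.8 CPM, against 107 and 106 CPM. Because all groups share one estimate of the spread, this library widened the error of every comparison, with a biological coefficient of variation of 17.7% with it and 12.4% without it. Calls of members are therefore given with all 18 libraries and with the 17 others, which leave 2 libraries in that group, and fitted values printed without a number of libraries are from all 18.

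Per kilobase of annotated exon, Sap30 was the most highly expressed member and Arid4b the least. Their means over the 18 libraries were 96.5 RPKM for Sap30, 60.4 for Sap30l, 32.9 for Sin3a, 25.1 for Ing1, 19.3 for Sin3b, 10.8 for Ing2, 10.5 for Sap130, 10.3 for Brms1, 8.51 for Suds3 and 3.14 for Arid4b. The median over tested genes with a known exon length was 4.36 RPKM, and Sap30 lay at the 97.2nd percentile of these genes, Sap30l at the 95.4th and Arid4b at the 42.6th. Transcripts of the small SAP30 proteins, which bridge SIN3 to its partners, thus had the highest values per kilobase, and that of the ARID-domain subunit the lowest. This order depends on the annotated exon length, which was 1178 bases for Sap30 and 16965 bases for Arid4b. In the untreated HDAC1-WT line, mean CPM was 143 for Sin3a, 111 for Sap30, 60.8 for Arid4b, 19.6 for Ing2 and 16.6 for Brms1. In CPM, Sap30 was therefore not the highest member there, nor Arid4b the lowest. Brms1, a coiled-coil protein related to SUDS3, was the only member below 30 CPM in every library. Its value is uncertain, since 79.0% of its exon bases overlap AC124502.3 on the same strand in GENCODE M21. That gene is not among the listed genes under this name, and how such reads were counted is not known here. For Sin3a, 3.81% of exon bases overlap Man2c1os on the opposite strand, and the strand setting of the counting is not known here. In GENCODE M21 on GRCm38, Sap30 lies at chr8:57482707-57487860, Sin3b at chr8:72723285-72758201, Ing1 at chr8:11555571-11563251, Ing2 at chr8:47667178-47675556, Sap30l at chr11:57801637-57810217, Suds3 at chr5:117091680-117116113 and Sin3a at chr9:57072040-57128366.

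**Figure D1:**
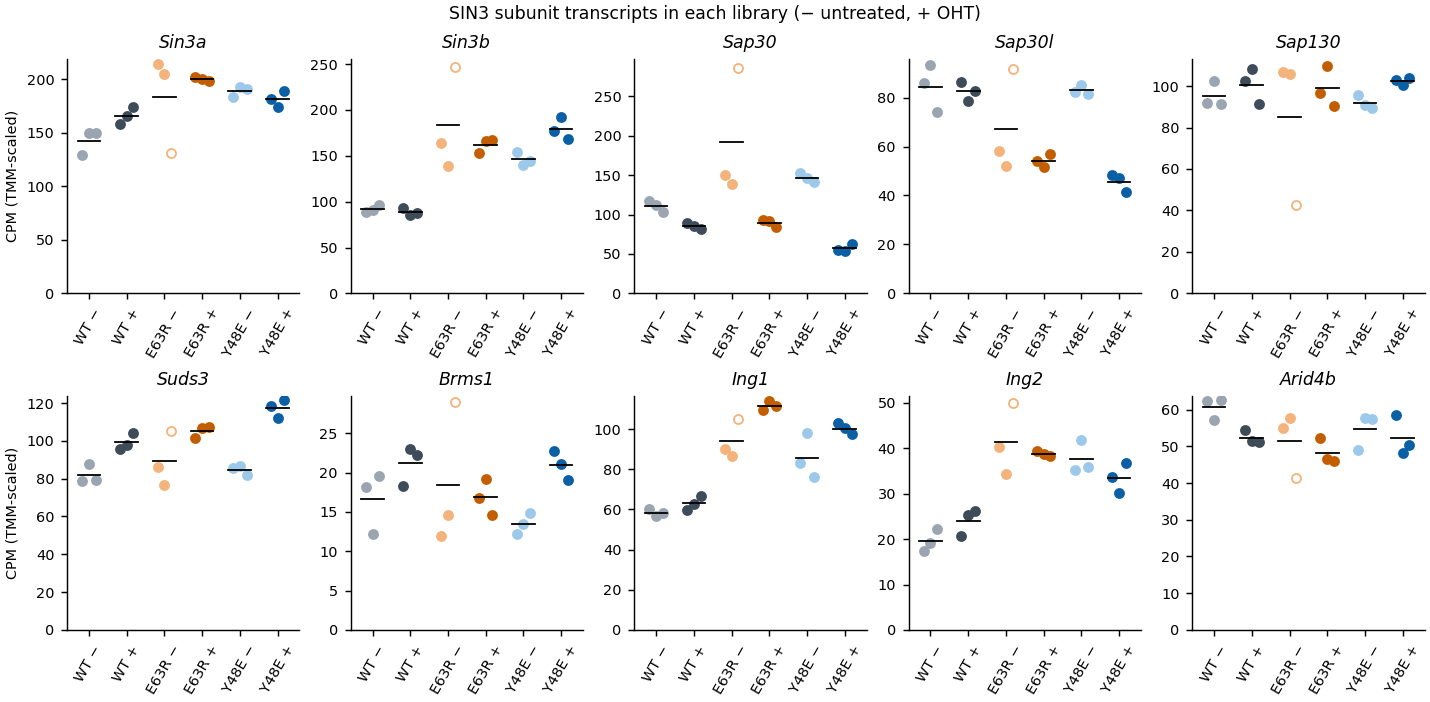
Level of each subunit transcript in CPM (vertical axis, TMM-scaled) in every library, by line and treatment (horizontal axis, − untreated, + OHT). Points are libraries, bars are means of 3 libraries, and the open circle is HDAC1-E63R untreated replicate 3. Sap30 lay lower with OHT in each line, and Sin3b, Ing1 and Ing2 lay higher in both mutant lines than in the HDAC1-WT line.

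In ESCs rescued with HDAC1-WT, few changes of subunit transcripts after OHT passed the limit. With 18 libraries, 0 of the 10 members passed an adjusted p of 0.01 in edgeR's quasi-likelihood test, where 0.0585% of all tested genes passed. DESeq2 also called 0 members, and 2 members, Sap30 and Suds3, had an unadjusted p under 0.05. Sap30 was measured at 117, 112 and 103 CPM untreated and at 89.9, 85.0 and 81.5 CPM with OHT. All 3 OHT-treated libraries lay below all 3 untreated libraries. The log2 fold change was -0.38 (SE 0.17, edgeR adjusted p = 0.48). In bulk libraries such as these, fewer cells of a type and less RNA per cell cannot be told apart. With 17 libraries the estimate was -0.37 (SE 0.08, edgeR adjusted p = 0.0035), and Sap30 was then the only member to pass, where 1.39% of genes did. In that fit Sin3a (0.22), Suds3 (0.27), Ing2 (0.30) and Arid4b (-0.22) also had an unadjusted p under 0.05 but did not pass. The median absolute log2 fold change of the members was 0.22, beside 0.19 over all tested genes.

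In the HDAC1-E63R line, Sap30 fell after OHT. Its levels were 150.01, 139 and 286 CPM untreated, the last in the library that stood apart, and 93.4, 92.1 and 84.3 CPM with OHT. Every OHT-treated library lay below every untreated one, with or without replicate 3. With 18 libraries the log2 fold change was -1.09 (SE 0.18, edgeR adjusted p = 1.0e-04), a fall of more than 2-fold, as in 5.91% of genes in either direction. Without replicate 3 it was -0.69 (SE 0.09, edgeR adjusted p = 2.7e-08), a fall of less than 2-fold. Of the 10 members 1 passed with 18 libraries, where 14.3% of genes did. With 17 libraries 3 members passed, where 18.5% of genes did, since Suds3 and Ing1 rose. Suds3 stood at 86.4 and 76.6 CPM in untreated replicates 1 and 2 and at 101, 107 and 107 CPM with OHT, and its log2 fold change was 0.36 (edgeR adjusted p = 0.0016). The log2 fold change of Ing1 was 0.33 (edgeR adjusted p = 0.0064). The median absolute log2 fold change was 0.20 for the members and 0.40 for all tested genes with 18 libraries.

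In the HDAC1-Y48E line, 3 members passed with 18 libraries. Both SAP30 family transcripts fell and Suds3 rose. Sap30 was measured at 153, 147 and 141 CPM untreated and at 55.4, 53.8 and 62.7 CPM with OHT. The groups were far apart, and the OHT-treated libraries of this line held the lowest Sap30 levels of all 18. Its log2 fold change was -1.36 (SE 0.18, edgeR adjusted p = 2.4e-06), equal to 0.39 of the untreated level. Sap30l, the paralog of Sap30, stood at 82.2, 85.3 and 81.3 CPM untreated and at 48.5, 47.1 and 41.6 CPM with OHT. All 3 treated libraries lay below the untreated ones, with a log2 fold change of -0.86 (SE 0.15, edgeR adjusted p = 9.9e-05) with 18 libraries and -0.86 (edgeR adjusted p = 2.1e-10) with 17. Suds3, which SIN3 needs for its deacetylase activity, stood at 85.8, 86.8 and 81.95 CPM untreated and at 118, 112 and 122 CPM with OHT. All 3 treated libraries lay above the untreated ones, with a log2 fold change of 0.47 (SE 0.11, edgeR adjusted p = 0.0012) with 18 libraries and 0.46 (edgeR adjusted p = 3.4e-06) with 17.

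These 3 members of 10 passed in the HDAC1-Y48E line with 18 libraries, where 30.9% of all tested genes did, so the share of members was close to that background. Sap30 alone changed by more than 2-fold, as 16.6% of genes did. With 17 libraries Sin3b (log2 fold change 0.29, edgeR adjusted p = 9.8e-04) and Brms1 (0.63, edgeR adjusted p = 0.0034) also passed, which made 5 of 10, where 41.1% of genes passed. The scaffold Sin3a stood at 183, 192 and 190.4 CPM untreated and at 181, 174 and 189 CPM with OHT. Its groups overlapped, and its log2 fold change of -0.06 had a 95% confidence interval of -0.32 to 0.21 with 18 libraries and of -0.20 to 0.07 with 17. With 18 libraries the 7 members that did not pass lay between -0.17 and 0.64. The median absolute log2 fold change was 0.26 for the members, beside 0.56 for all tested genes.

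**Figure D2:**
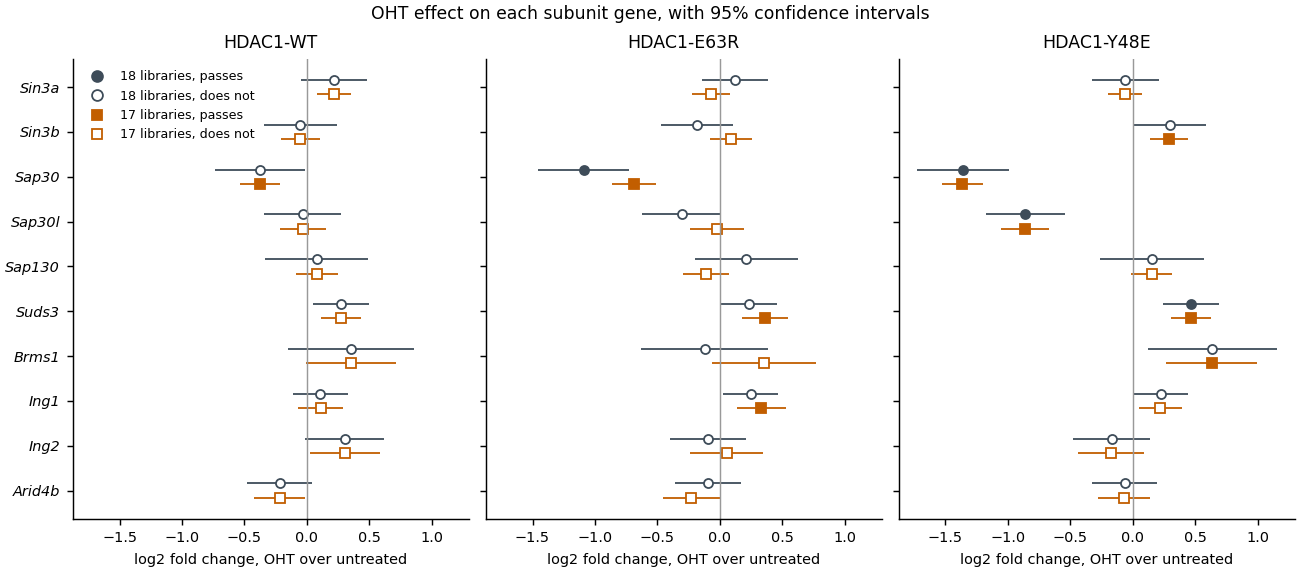
Log2 fold change of each subunit gene after OHT (horizontal axis) in the 3 lines, with 95% confidence intervals, from the fit with all 18 libraries (circles) and without HDAC1-E63R untreated replicate 3 (squares). Filled symbols passed an adjusted p of 0.01. The Sap30 estimate lay at -0.37 or below in each line, and Sap30l passed in the HDAC1-Y48E line only, with estimates in the HDAC1-E63R line of -0.31 with 18 libraries and -0.02 with 17.

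Whether the response to OHT differed between lines was tested as an interaction. The comparisons share the HDAC1-WT libraries and are not independent of each other. Compared with the HDAC1-WT line, Sap30 fell further in ESCs with HDAC1-Y48E, with a difference in log2 fold change of -0.98 (SE 0.25, edgeR adjusted p = 0.0062) with 18 libraries and of -0.99 (SE 0.11, edgeR adjusted p = 1.6e-09) with 17. Sap30l did so too, by -0.83 (SE 0.21, edgeR adjusted p = 0.0072) with 18 libraries and -0.83 (SE 0.13, edgeR adjusted p = 2.3e-06) with 17. They were 2 of 10 members, where 12.6% of genes passed with 18 libraries and 23.1% with 17. With 18 libraries these calls were close to the threshold, and leaving out any 1 of the 12 libraries compared left 0 or 1 of them, with differences that stayed between -1.03 and -0.94 for Sap30 and between -0.87 and -0.75 for Sap30l wherever a call was lost. Between the HDAC1-E63R and HDAC1-WT lines, 0 of 10 members passed in edgeR with either set and in DESeq2, where 2.45% and 6.53% of genes did, and 1 and 2 members had an unadjusted p under 0.05. The Sap30 difference there was -0.71 with 18 libraries and -0.31 (edgeR adjusted p = 0.082) with 17. Between the 2 mutant lines, 0 members passed in edgeR or DESeq2 with 18 libraries, where 1.95% of genes did and 3 members had an unadjusted p under 0.05. The differences were then -0.27 for Sap30 (edgeR adjusted p = 0.62) and -0.55 for Sap30l (edgeR adjusted p = 0.15). Leaving out HDAC1-E63R untreated replicate 3 changed these calls. With 17 libraries Sap30 (-0.68, edgeR adjusted p = 6.0e-05) and Sap30l (-0.84, edgeR adjusted p = 3.7e-05) fell further in the HDAC1-Y48E line, where 7.45% of genes passed.

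The promoters of the 3 members that passed in the HDAC1-Y48E line are given here from RefSeq, GRCm38.p6, as 250 bases before to 50 bases after the annotated start of the gene, 5′ to 3′ on the strand of the gene. Capitals mark matches on either strand to CACGTG (an E-box, the site of MAX and MXD proteins), GGGCGG (a GC box), CCAAT and CGGAAG (an ETS core), and matches can overlap. The Sap30 window is chr8:57487811-57488110 on the minus strand, the Sap30l window chr11:57801387-57801686 on the plus strand and the Suds3 window chr5:117115944-117116243 on the minus strand.
Sap30: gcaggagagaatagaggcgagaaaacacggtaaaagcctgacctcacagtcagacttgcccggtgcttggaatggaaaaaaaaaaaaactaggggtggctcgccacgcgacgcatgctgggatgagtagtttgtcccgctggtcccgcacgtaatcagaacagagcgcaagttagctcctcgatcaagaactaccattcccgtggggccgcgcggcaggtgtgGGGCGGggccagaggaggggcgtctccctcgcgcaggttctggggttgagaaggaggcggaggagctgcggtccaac
Sap30l: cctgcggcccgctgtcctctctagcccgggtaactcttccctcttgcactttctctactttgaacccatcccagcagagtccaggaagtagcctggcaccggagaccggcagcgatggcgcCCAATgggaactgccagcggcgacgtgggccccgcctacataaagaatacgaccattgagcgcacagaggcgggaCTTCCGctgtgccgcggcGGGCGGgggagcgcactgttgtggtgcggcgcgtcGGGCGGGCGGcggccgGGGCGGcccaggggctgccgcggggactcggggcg
Suds3: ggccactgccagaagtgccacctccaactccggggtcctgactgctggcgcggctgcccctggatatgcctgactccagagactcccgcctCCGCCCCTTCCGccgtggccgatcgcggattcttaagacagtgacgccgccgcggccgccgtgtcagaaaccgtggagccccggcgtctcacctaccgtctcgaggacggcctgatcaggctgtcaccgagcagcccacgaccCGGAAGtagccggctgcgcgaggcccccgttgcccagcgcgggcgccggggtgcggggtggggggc
The windows of the 2 genes that fell were not alike in these matches. Sap30 had 1 GC box, whereas Sap30l had 4 GC boxes, 1 CCAAT and 1 ETS core, and Suds3, which rose, had 1 GC box and 2 ETS cores. A GC box was present in 35.7% of the 32851 promoter windows in the table, CCAAT in 37.4%, an ETS core in 16.9% and an E-box in 7.15%. None of the 13 windows of the 8 members in the table held an E-box in these letters. The 3 printed windows had 22, 33 and 34 CpG dinucleotides in the same order, beside a median of 7 over all windows.

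The mutant lines differed from the HDAC1-WT line already before OHT. In the untreated HDAC1-E63R line, Sin3b, Sap30, Ing1 and Ing2 were higher than in the untreated HDAC1-WT line, which made 4 of 10 members with 18 libraries, where 16.9% of genes passed. Sin3b stood at 89.1, 90.7 and 96.1 CPM in the untreated HDAC1-WT line and at 164, 139 and 247 CPM in the untreated HDAC1-E63R line. The groups did not overlap, with a log2 difference of 1.00 (SE 0.14, edgeR adjusted p = 1.6e-05) with 18 libraries and 0.73 (SE 0.08, edgeR adjusted p = 1.9e-09) with 17. Ing2 stood at 17.3, 19.1 and 22.3 CPM and at 40.2, 34.3 and 49.98 CPM in these groups. Its log2 difference was 1.08 (edgeR adjusted p = 1.4e-05) with 18 libraries, beyond 2-fold as in 7.65% of genes, and 0.94 (edgeR adjusted p = 2.4e-06) with 17. For Ing1 the 2 estimates were 0.69 and 0.61, and for Sap30 they were 0.79 and 0.39. With 17 libraries Sin3a was also higher (0.56, edgeR adjusted p = 6.9e-08) and Sap30l lower (-0.61, edgeR adjusted p = 1.3e-05), and 20.5% of genes passed.

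In the untreated HDAC1-Y48E line 3 of these 4 genes passed with 18 libraries, and the fourth, Sap30, had a log2 difference of 0.41 (edgeR adjusted p = 0.11). Sin3b was measured at 154, 139.9 and 144 CPM, above every HDAC1-WT library, with a log2 difference of 0.67 (SE 0.14, edgeR adjusted p = 0.0014). Ing1 was higher by 0.55 (edgeR adjusted p = 6.5e-04) and Ing2 by 0.95 (edgeR adjusted p = 9.4e-05). They were 3 of 10 members with 18 libraries, where 12.2% of genes passed, and with 17 libraries Sap30 (0.41) and Sin3a (0.41) joined them, where 21.4% passed. Sap30l stood at nearly the same level in both lines before OHT, with a log2 difference of -0.03 (95% confidence interval -0.34 to 0.28). Both comparisons share the untreated HDAC1-WT libraries.

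After OHT, Sin3b and Ing1 remained higher in both mutant lines than in the OHT-treated HDAC1-WT line. Sin3b was measured at 92.7, 85.6 and 87.4 CPM in that line, at 153, 166 and 167 CPM with HDAC1-E63R and at 177, 193 and 168 CPM with HDAC1-Y48E. The log2 differences were 0.87 (SE 0.14, edgeR adjusted p = 6.1e-05) for HDAC1-E63R and 1.02 (SE 0.14, edgeR adjusted p = 4.2e-06) for HDAC1-Y48E, the latter a difference of more than 2-fold, as in 18.2% of genes. Ing1 was higher by 0.83 and 0.67. Ing2 was higher by 0.69 with HDAC1-E63R (edgeR adjusted p = 0.0013), and with HDAC1-Y48E its difference was 0.48 with 18 libraries (edgeR adjusted p = 0.014) and passed with 17 at 0.47 (edgeR adjusted p = 0.0028). Sap30l was lower in both, at 54.2, 51.5 and 57.1 CPM with HDAC1-E63R and 48.5, 47.1 and 41.6 CPM with HDAC1-Y48E, beside 86.5, 78.6 and 82.7 CPM with HDAC1-WT. Its log2 differences were -0.61 (edgeR adjusted p = 0.0039) and -0.85 (edgeR adjusted p = 9.4e-05). The HDAC1-E63R call of Sap30l was lost with 18 libraries when any of 5 of the 6 libraries compared was left out, and its edgeR adjusted p was 9.3e-07 with 17. In all, 4 of 10 members passed with HDAC1-E63R, where 19.3% of genes did, and 3 of 10 with HDAC1-Y48E, where 31.8% did. With 17 libraries these counts were 5 and 6, where 29.5% and 41.8% of genes passed. Sap30 was then lower with HDAC1-Y48E (-0.58, edgeR adjusted p = 8.0e-08), and with HDAC1-E63R its difference was 0.08 (95% confidence interval -0.08 to 0.24).

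The members that were higher in the mutant lines shared a chromosome. Sin3b, Sap30, Ing1 and Ing2 lie on chromosome 8, and the other 6 members on chromosomes 5, 9, 11, 13, 18 and 19. This was noticed after the values were seen. With 18 libraries, 4 of the 4 chromosome 8 members and 0 of the 6 others were higher in the untreated HDAC1-E63R line, where 9.04% of all tested genes were. In the untreated HDAC1-Y48E line these counts were 3 of 4 and 0 of 6, where 6.42% of genes were higher. After OHT they were 3 of 4 and 0 of 6 with HDAC1-E63R, where 10.5% of genes were higher, and 2 of 4 and 0 of 6 with HDAC1-Y48E, where 16.6% were. With 17 libraries Sin3a, on chromosome 9, was higher too in all but the last of these comparisons, and Suds3, on chromosome 5, in the last. The rest of chromosome 8 moved with them. Among 930 other genes of this chromosome with a mean of at least 1 CPM, the median log2 difference from HDAC1-WT was 0.42 in the untreated HDAC1-E63R line and 0.33 in the untreated HDAC1-Y48E line, and after OHT it was 0.43 and 0.29. Chromosome 8 ranked second of 20 in each of these comparisons. Chromosome 6 ranked first, with medians between 0.50 and 0.58, and the remaining 18 medians lay between -0.19 and 0.15. Chromosome 6 holds no member. The OHT comparisons within a line did not show the chromosome 8 difference, with medians of -0.01 for HDAC1-WT, -0.01 for HDAC1-E63R and 0.01 for HDAC1-Y48E.

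**Figure D3:**
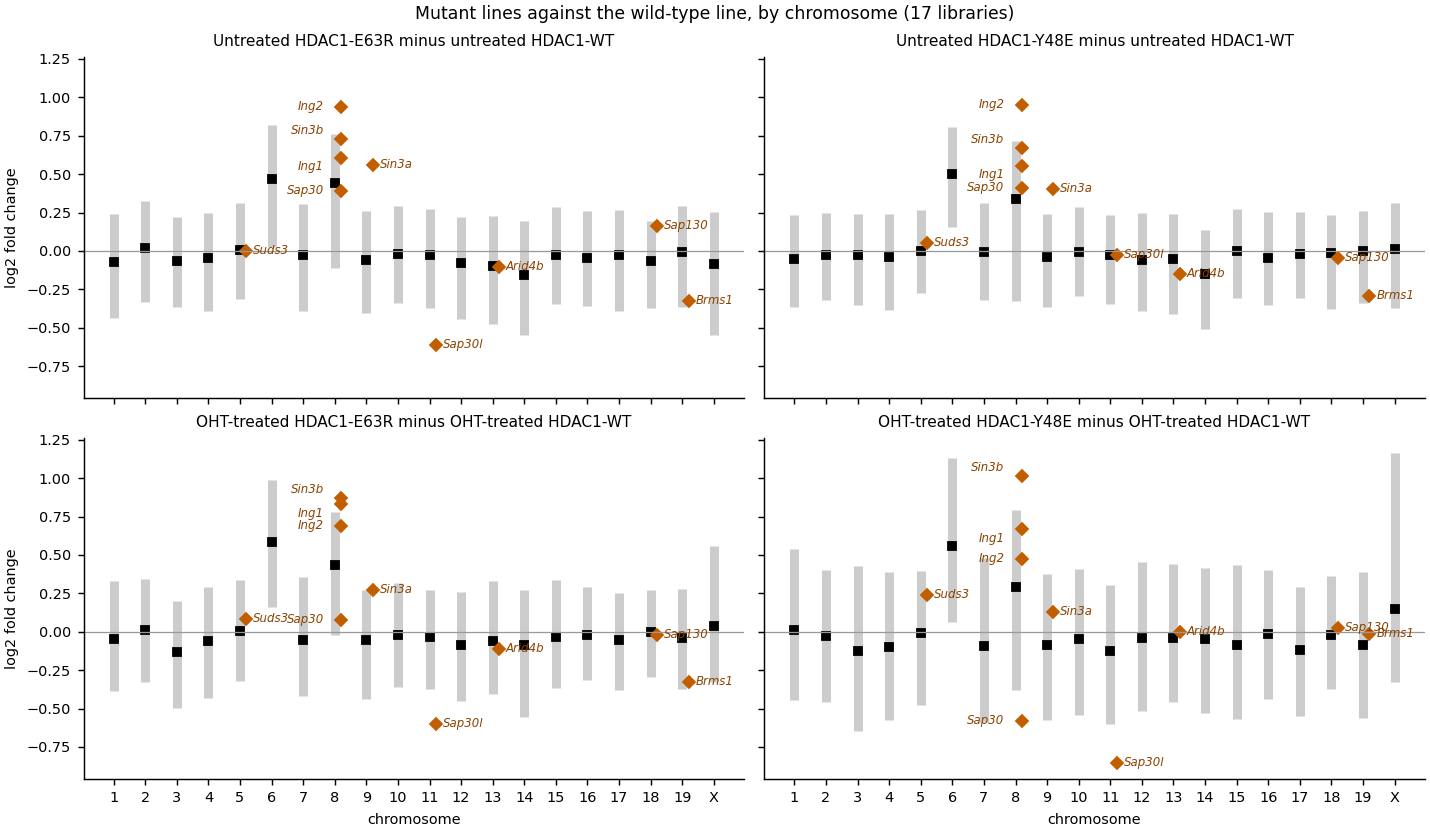
Log2 fold change of the mutant lines against HDAC1-WT (vertical axis) by chromosome (horizontal axis), untreated and with OHT, from the fit with 17 libraries. Squares are medians of the genes of a chromosome other than members, grey bars span the middle 50% of its genes, and diamonds are members. Chromosomes 6 and 8 stood above the rest in all 4 comparisons, and Sin3b, Ing1 and Ing2 lay above the chromosome 8 median in each.

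The shift on chromosome 8 covered most but not all of its length. When its genes were divided by position into 4 stretches of nearly equal gene number, the first 3 held all 4 members and had medians of 0.47, 0.59 and 0.62 in the untreated HDAC1-E63R line, whereas the last had -0.11. In the untreated HDAC1-Y48E line these were 0.35, 0.42, 0.58 and -0.15. The single libraries did not overlap. Over the first 3 stretches together, the median log2 difference from the untreated HDAC1-WT mean was between -0.01 and 0.01 in the 6 HDAC1-WT libraries, between 0.48 and 0.53 in the 6 HDAC1-E63R libraries and between 0.38 and 0.47 in the 6 HDAC1-Y48E libraries. The library that stood apart was among these, at 0.48. Copy number was not measured, and its part in the levels of these members was not tested.

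The members' own differences were not all equal to those of their neighbours. Around Sin3b, the 20 nearest genes on each side had a median log2 difference of 0.59 in the untreated HDAC1-E63R line and 0.71 in the untreated HDAC1-Y48E line, with 33 of 40 genes higher in each, and Sin3b itself had 1.00 and 0.67 with 18 libraries. Around Ing1 the medians were 0.46 and 0.42, beside 0.69 and 0.55 for Ing1. Ing2 and Sap30 lie in a stretch where the lines differed. The 40 neighbours of Ing2 had medians of 0.38 with HDAC1-E63R and -0.04 with HDAC1-Y48E before OHT (18 libraries), whereas Ing2 was higher by 1.08 and 0.95. The 40 neighbours of Sap30 had medians of 0.27 and -0.95, and Sap30 had 0.79 and 0.41. With 17 libraries, the untreated HDAC1-E63R neighbour medians were 0.61 for Sin3b, 0.47 for Ing1, 0.47 for Ing2 and 0.33 for Sap30. The members themselves then had 0.73, 0.61, 0.94 and 0.39 in the same order. Of the 40 Sap30 neighbours, 22 then lay below Sap30, beside 36 with 18 libraries. After OHT, the Sap30 neighbours had medians of 0.35 and -0.71 against the OHT-treated HDAC1-WT line, and Sap30 had 0.07 and -0.58. Sin3a, which lies on chromosome 9, had neighbours at -0.04 and -0.15 in the untreated mutant lines and own differences of 0.36 and 0.40, which did not pass with 18 libraries (edgeR adjusted p = 0.039 and 0.028), and passed with 17 at 0.56 and 0.41.

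**Figure D4:**
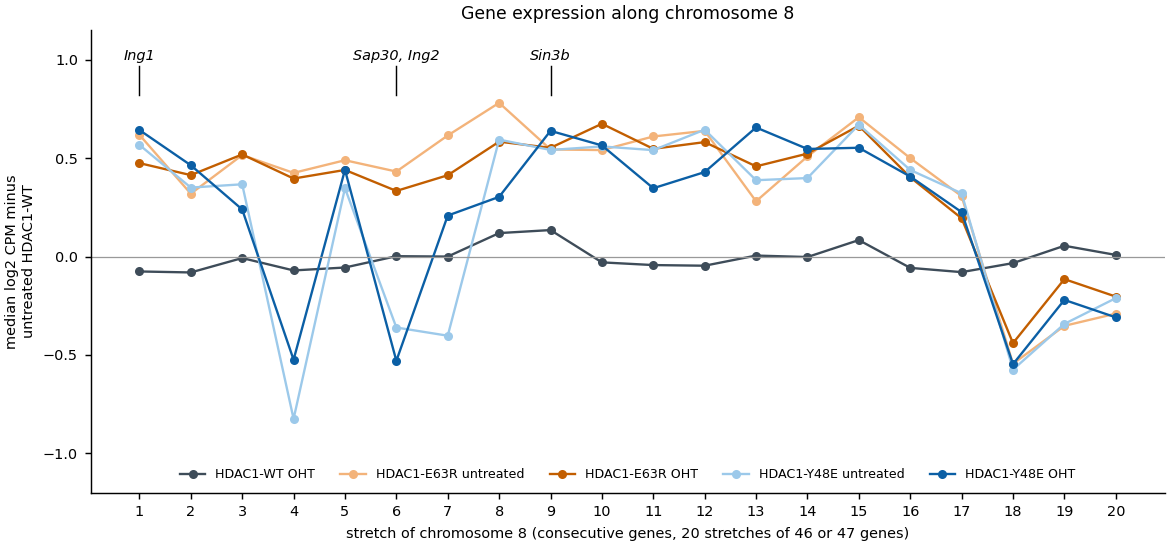
Median log2 CPM relative to the untreated HDAC1-WT mean (vertical axis) in 20 consecutive stretches of chromosome 8 genes (horizontal axis), for the 5 other groups, members left out. Points are medians over the 46 or 47 genes of a stretch, HDAC1-E63R untreated replicate 3 is left out, and marks show the stretches of the 4 members. Both mutant lines lay above 0 over most stretches and below 0 in the last 3, and the HDAC1-Y48E line also lay below 0 in the fourth stretch, in the sixth, which holds Ing2 and Sap30, and, before OHT, in the seventh.

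The balance between paralogs differed between lines. The ratio of Sin3b to Sin3a, both per kilobase, was 0.505, 0.445 and 0.471 in the untreated HDAC1-WT libraries and 0.430, 0.379 and 0.367 with OHT. It was 0.614, 0.533 and 0.554 in the untreated HDAC1-Y48E libraries and 0.716, 0.813 and 0.652 with OHT. Every HDAC1-Y48E library thus lay above every HDAC1-WT library, and the OHT-treated ones lay highest. In the HDAC1-E63R line the ratio was 0.561 and 0.498 in untreated replicates 1 and 2, 1.38 in replicate 3, and 0.555, 0.609 and 0.615 with OHT. The ratio of Sap30 to Sap30l was lower with OHT in all lines. Its means were 1.29 and 1.01 in the HDAC1-WT line, 1.73 and 1.24 in the HDAC1-Y48E line, and 2.57 and 1.62 in the HDAC1-E63R line without replicate 3, which stood at 3.05. Sin3b and Sap30 lie on chromosome 8, where most genes were higher in both mutant lines, and Sin3a and Sap30l do not. Before OHT, Sin3b was higher by 0.67 with HDAC1-Y48E and 1.00 with HDAC1-E63R, beside 0.71 and 0.59 for its 40 neighbours. Without replicate 3 the HDAC1-E63R values were 0.73 for Sin3b and 0.61 for its neighbours. These ratios were not tested, nor was the part of the chromosome 8 difference in them.

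**Figure D5:**
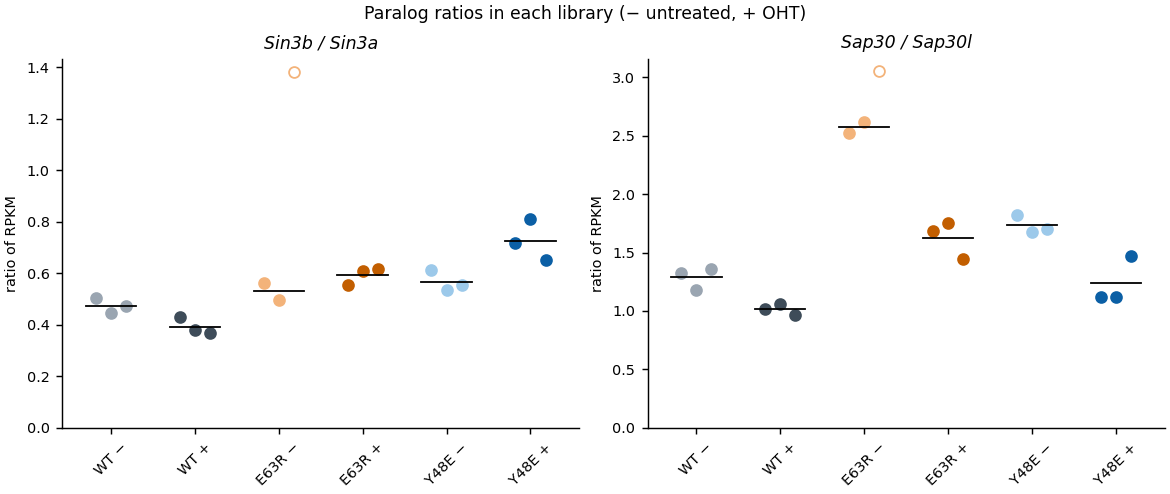
Ratio of paralog levels in RPKM (vertical axis) in each library, by line and treatment (horizontal axis, − untreated, + OHT). Points are libraries, bars are means without HDAC1-E63R untreated replicate 3, and that library is the open circle. The Sin3b to Sin3a ratio was highest in the OHT-treated HDAC1-Y48E line, at 0.652 to 0.813 apart from the open circle at 1.38. Sin3b and Sap30 lie on chromosome 8, and Sin3a and Sap30l do not.

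Genes of the pathway outside the 10 members also changed. Of 15 tested genes of other SIN3-associated subunits, 1 was higher and 4 lower after OHT in the HDAC1-Y48E line with 18 libraries, a share close to the 30.9% of all tested genes that passed there. Brms1l, a paralog of Brms1, rose by 1.27 on the log2 scale, whereas Brms1 itself had 0.64 (edgeR adjusted p = 0.043). Tet1, a methylcytosine dioxygenase that associates with SIN3A in ESCs, had a log2 fold change of -1.85, Fam60a (SINHCAF) -0.73, the histone chaperone Rbbp4 -0.60 and the glycosyltransferase Ogt -0.59. In the HDAC1-E63R line Brms1l rose (0.87 with 18 libraries and 0.86 with 17) and Rbbp4 fell (-0.54 with 18 libraries, and -0.33 without replicate 3), and in the HDAC1-WT line 0 of 15 passed with 18 libraries. This list includes Hdac1 and Hdac2, the genes targeted by OHT. With 17 libraries the targeted gene Hdac2 (-0.66) and Rbbp4 (-0.27) were lower in the HDAC1-WT line.

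Among 12 sequence-specific factors and partners that recruit SIN3, 1 was higher and 7 were lower after OHT in the HDAC1-Y48E line, where 30.9% of all tested genes passed, with a median log2 fold change of -0.60 beside 0.05 over all tested genes. The MAX dimerization proteins moved in opposite directions, with Mxd4 at 2.87 and Mxd3 at -1.40. The neuronal gene repressor Rest had a log2 fold change of -1.17, Max -0.79, Klf10 -0.76 and Mnt -0.74. In the HDAC1-E63R line Mxd4 rose (1.92) and Mxd3 (-0.93) and Max (-0.75) fell with 18 libraries, where 14.3% of genes passed. With 17 libraries 1 was higher and 6 were lower, where 18.5% of genes passed, and Mxd3 had -0.56. Of 12 scaffolds with ELM2-SANT domains, which hold HDAC1 in the NuRD, CoREST, MIER, MIDAC and RERE complexes, 0 were higher and 4 were lower in the HDAC1-Y48E line with 18 libraries, close to the 30.9% of all genes, with a median of -0.33, and 6 were lower with 17, where 41.1% of genes passed. In the HDAC1-E63R line 1 was lower with 18 libraries, where 14.3% of genes passed, and 7 were lower with 17, where 18.5% did. These lists share the libraries and the model of the members, and no test between lists was made.

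Markers of cell identity moved in the same comparisons. The summed level of 10 pluripotency markers was 8704 to 8827 CPM in the untreated HDAC1-WT libraries and 9097 to 9975 CPM with OHT, 5908 to 9200 and then 5068 to 5376 CPM in the HDAC1-E63R line, and 6468 to 6544 and then 2829 to 2981 CPM in the HDAC1-Y48E line, with none of the 10 at 0 in any group. With OHT and 18 libraries, 9 of these 10 were lower in the HDAC1-Y48E line, where 30.9% of all tested genes passed. In the HDAC1-E63R line 4 were lower and 1 was higher, where 14.3% of genes passed. With 17 libraries 9 were lower in the HDAC1-Y48E line, where 41.1% passed, and in the HDAC1-E63R line 5 were lower and 2 were higher, where 18.5% passed. In the HDAC1-Y48E line the 5 neural markers went in sum from between 100.3 and 103 to between 156 and 174 CPM with OHT. Of these 5, 3 were higher and 2 lower, since Tubb3, Nes and Map2 rose whereas Pax6 fell from between 9.68 and 13.9 to between 1.71 and 2.54 CPM and Sox1 from between 11.6 and 14.3 to between 4.59 and 5.98 CPM. In the HDAC1-E63R line the neural sum went from between 88.8 and 104 to between 131 and 138 CPM. In the HDAC1-Y48E line the 7 fibroblast markers went from between 40.9 and 43.4 to between 94.5 and 105 CPM, with Lum at 0 in both groups and Dcn at 0 in the treated one. Thy1 and Col1a1 rose there, whereas Pdgfrb went from between 15.9 and 17.9 to between 7.43 and 15.7 CPM. The fibroblast sum also rose in the HDAC1-WT line, from between 43.4 and 49.4 to between 62.2 and 66.1 CPM. In the HDAC1-E63R line it went from between 27.8 and 40.8 to between 60.2 and 68.5 CPM. The 6 trophoblast markers went from between 71.9 and 86.5 to between 85.2 and 92.4 CPM in the HDAC1-Y48E line and from between 74.3 and 85.6 to between 144 and 151 CPM in the HDAC1-E63R line, with none at 0 in these 4 groups and Cdx2 at 0 in the OHT-treated HDAC1-WT group. The HDAC1-WT sums were higher, at 186 to 197 CPM untreated and 194 to 219 CPM with OHT. Most of the HDAC1-E63R sum was Tfap2c, which went from between 41.2 and 69.5 to between 101 and 105 CPM. Hand1 rose there too, whereas Ascl2 fell from between 11.3 and 29.6 to between 5.71 and 9.68 CPM. The 6 endoderm markers went from between 17.1 and 23.97 to between 44.1 and 49.96 CPM in the HDAC1-Y48E line, with none at 0. Most of this was Dab2, which went from between 6.78 and 10.6 to between 26.3 and 32.9 CPM. Of the 5 tested endoderm markers 1 passed, where 30.9% of all tested genes did. The HDAC1-WT endoderm sum was 38.1 to 39.8 CPM untreated and 31.4 to 39.5 CPM with OHT. The part of all these markers in the subunit results was not tested.

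The genes with a pattern most like that of Sap30, the only member that changed by more than 2-fold after OHT, were sought among 16684 genes. Over the 18 libraries these were Cetn3 (Pearson r = 0.97), Rbbp4 (0.97) and Siva1 (0.96). Cetn3 encodes a centrin and Rbbp4 a histone chaperone found in SIN3 and other deacetylase complexes. The points share the library that stood apart, and without it the 3 genes were Clk1, Alkbh5 and Hspa9, none of which was in the first list. Among the members, Suds3 ran against Sap30, with r = -0.57 over 18 libraries and -0.87 over 17, and Sap30l had r = 0.59 and 0.54. Suds3 was not alone in this, since Sap130 had r = -0.63 and -0.23 and Brms1 had r = -0.23 and -0.78. These are descriptions over libraries that fall into 6 groups, and no p-value is attached to them.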

How the data were processed

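Per the labels, total RNA was extracted with TRI Reagent and libraries were made with an NEB Next Ultra kit, and per the study's methods they were sequenced as paired 150-base reads. The submitters' processing notes name HISAT2 2.1.0, SAMtools 1.9 and HTSeq, with reads aligned to mm10. The annotation and the strand setting are not given in the sources used here. The authors deposited raw counts per gene, 1 table per library. Entries that name no gene (59.4 to 61.2% of each total) were left out of library sizes and tests. Library totals of 9019615 to 11454638 counts make 3 counts worth 0.262 to 0.333 CPM, and such limits cover counting error only.

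Groups were taken from the labels. Genes were filtered with filterByExpr, scaled with TMM factors and tested in edgeR 4.0.16 (R 4.3.3) by the quasi-likelihood test, with 1 mean per group over all 18 libraries and Benjamini-Hochberg adjustment over the 18791 genes tested. The limit was an adjusted p of 0.01, and a log2 fold change beyond 1 was called more than 2-fold. With 17 libraries 19503 genes were tested. The script was tested on simulated data. RPKM used exon lengths of GENCODE M21. Intervals are at 95%. Members were named where they passed, and other lists by at most 6 genes. The members and lists were chosen with earlier results of these data known. Alternatives were DESeq2 1.42.0, RLE factors, library totals only, other filters on low counts, only the libraries compared, a replicate block, another limit and each library left out. The 17-library fit and the comparison by chromosome were chosen after seeing the data.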

Additional observations from a re-analysis of the deposited data

Results flagged for a closer look

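The response of 2 members to OHT differed between lines by a test of the difference itself. Between the HDAC1-Y48E and HDAC1-WT lines, the difference in log2 fold change was -0.98 for Sap30 and -0.83 for Sap30l with 18 libraries, and -0.99 and -0.83 with 17. Between the HDAC1-Y48E and HDAC1-E63R lines it was -0.27 for Sap30 and -0.55 for Sap30l with 18 libraries, and neither passed. Without HDAC1-E63R untreated replicate 3 it was -0.68 for Sap30 and -0.84 for Sap30l, and both passed. All 3 OHT-treated HDAC1-Y48E libraries lay below all 3 OHT-treated HDAC1-E63R libraries for both genes. The lines also differed in Sap30l before OHT, with means of 55.0 CPM with HDAC1-E63R (without replicate 3) and 82.9 CPM with HDAC1-Y48E. With OHT these means were 54.3 and 45.7 CPM. Groups of 3 libraries were too small for a single library to be tested as an outlier.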

How the results depend on the processing

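No member reversed its direction under any alternative in a comparison where it passed with 18 or 17 libraries. Some that passed with neither set changed sign without HDAC1-E63R untreated replicate 3, such as Brms1 (-0.12 and 0.35) and Sin3b (-0.18 and 0.09) for OHT with HDAC1-E63R. Several counts of members that passed moved with this replicate, which widened the spread of the shared model. Without it the counts were 1 for OHT with HDAC1-WT, 5 for OHT with HDAC1-Y48E, 5 for untreated HDAC1-Y48E against HDAC1-WT and 6 for OHT-treated HDAC1-Y48E against HDAC1-WT. The shares of all tested genes that passed were then 1.39%, 41.1%, 21.4% and 41.8% in the same order. With only the libraries compared, the counts were 0 for OHT with HDAC1-E63R, 5 for OHT with HDAC1-Y48E, 1 and 5 for the untreated HDAC1-E63R and HDAC1-Y48E lines against HDAC1-WT, and 5 for OHT-treated HDAC1-Y48E against HDAC1-WT. Of all genes, 318 were higher and 135 lower of 16686 for the first, and 4136 and 3828 of 17162 for the second. For the lines against HDAC1-WT they were 286 and 349 of 16315, 1978 and 1839 of 16188, and 4140 and 3718 of 17526. With library totals only, which moved the median log2 fold change of all genes from 0.03 to 0.23 for OHT with HDAC1-E63R and from 0.05 to 0.25 with HDAC1-Y48E, the counts were 3 and 6 for these effects, 1 for the difference of the HDAC1-Y48E and HDAC1-WT effects, and 5 for OHT-treated HDAC1-Y48E against HDAC1-WT. That difference also gave 1 with RLE factors and 1 with the replicate block. For HDAC1-E63R and HDAC1-WT the difference gave 1 with no filter on low counts, and an adjusted p limit of 0.05 gave 5 for OHT-treated HDAC1-Y48E against HDAC1-WT. For these moves the cause was not tested.

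With each library left out in turn, the counts were 1 to 3 for OHT with HDAC1-E63R, 3 for OHT with HDAC1-Y48E, 0 for OHT with HDAC1-WT, 0 to 1 for the difference of the HDAC1-Y48E and HDAC1-WT effects, 0 to 2 for that of the HDAC1-Y48E and HDAC1-E63R effects, 3 to 6 for untreated HDAC1-E63R against HDAC1-WT, and 2 to 4 for OHT-treated HDAC1-E63R against HDAC1-WT. Of 19375 to 19601 genes, those higher and lower were 943 to 1726 and 715 to 1879, 2317 to 2419 and 2231 to 2339, and 1 to 4 and 2 to 6. For the 2 differences they were 792 to 876 and 1007 to 1096, and 49 to 418 and 185 to 1035. For the lines against HDAC1-WT they were 1165 to 2136 and 1074 to 1870, and 1395 to 1527 and 1139 to 1315, all in the same order. In the replicate check, same-numbered libraries of a line had correlations of -0.02 to 0.04 in their deviations. Every untreated library but replicate 2 of the HDAC1-WT and HDAC1-E63R lines correlated best with the OHT-treated library of its own number. With correlations this small, the check does not settle whether the numbers pair the samples. The block changed no other count. DESeq2 and a filter at a mean of 1 CPM gave counts within 1.5 times those reported in each comparison. With 3 libraries a group, the low counts of Brms1 and Ing2 gave the widest intervals with 17 libraries.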
